A study of Mus musculus with 12 samples.

Results

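The growth hormone pathway of the liver was described through 9 transcripts, taken by gene symbol out of the 17714 genes in the table of normalized read counts. They were Ghr, Jak2, Stat5a, Stat5b, Socs2, Cish, Prlr, Igf1 and Igfals, and all 9 were present once and were tested. The livers came from 6 female mice with a global Lcorl knockout (Lcorl KO), a deletion of the gene for ligand dependent corepressor-like protein in every tissue, and from 6 female wild-type (WT) mice. All 12 animals were 3 weeks old, the age of weaning, and their livers were taken at about the same hour of the morning and frozen. Because the deletion was global, liver transcripts cannot be assigned to loss of Lcorl in the liver itself. Each library was 1 liver with its own animal number, and no treatment was given in the labels.

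Growth hormone binds its receptor GHR on hepatocytes, and the receptor-bound kinase JAK2 then phosphorylates the transcription factors STAT5A and STAT5B. These enter the nucleus and activate genes that include Igf1, the main source of circulating IGF-I, and Igfals, which encodes the acid-labile subunit that holds IGF-I and its binding protein in a long-lived complex in blood. Socs2 and Cish, also activated by STAT5, encode feedback inhibitors of the receptor and its kinase, and both are known as rapid targets of a hormone that is released in pulses. Prlr encodes the prolactin receptor, a close relative of GHR that also signals through JAK2 and STAT5.

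Libraries held between 27692285 and 31296485 reads assigned to genes in KO livers and between 21769795 and 28655120 in WT livers. The smallest number of reads behind a value of the 9 genes was 48, for Socs2 in WT 4, and the largest was 27316, for Igf1 in WT 5. Lcorl was counted with 3 reads in the 6 KO livers, all of them in KO 5, against 1594 reads in the 6 WT livers, so the targeted gene matched its labels. The summed normalized count of 7 hepatocyte markers (Alb, Apoa1, Apob, Ttr, Tat, Cps1 and Serpina1c) lay between 3064800 and 3897130 in KO livers and between 3443420 and 3818630 in WT livers, and 0 of the 7 passed the test (limma). In RNA from whole liver, fewer cells of a type and less RNA per cell cannot be told apart. Of 13569 genes with a mean of at least 10 normalized counts, 601 passed an adjusted p of 0.05 by limma, which is 4.43% of the genes tested, with 237 higher and 364 lower in KO livers.

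STAT5 binds a short palindrome, TTCNNNGAA, and the annotated start sites of the pathway genes were searched for it. Sequences of Cish, Prlr, Igfals and Igf1 were picked because their transcripts varied together across livers. Binding was not measured, and whether a match bears on that shared variation was not tested. RefSeq promoters (GRCm38.p6, 250 bases before to 50 bases after each annotated start) were held for 8 of the 9 genes, in 15 entries, and Socs2 was not among them. The palindrome reads the same on both strands, so 1 search covers both. It was found in 4 of the 15 entries, belonging to 3 of the 8 genes, Cish, Prlr and Igfals. Across all 32851 promoter entries of the same length, 8.3% held at least 1 match and 0.457% held at least 2. Of 27025 genes, 9.55% had a match in at least 1 entry, and a gene with several entries has more chances of one. Capitals mark the matches in the sequences below, each written 5′ to 3′ on the strand of the gene.
Cish, chr9:107296409-107296708, plus strand: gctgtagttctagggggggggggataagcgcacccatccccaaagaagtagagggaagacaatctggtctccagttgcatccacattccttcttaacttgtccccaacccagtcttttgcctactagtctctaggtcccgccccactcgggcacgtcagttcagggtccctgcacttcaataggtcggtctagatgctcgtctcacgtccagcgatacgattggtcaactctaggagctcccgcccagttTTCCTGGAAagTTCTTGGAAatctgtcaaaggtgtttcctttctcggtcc
Prlr, chr15:10223656-10223955, plus strand: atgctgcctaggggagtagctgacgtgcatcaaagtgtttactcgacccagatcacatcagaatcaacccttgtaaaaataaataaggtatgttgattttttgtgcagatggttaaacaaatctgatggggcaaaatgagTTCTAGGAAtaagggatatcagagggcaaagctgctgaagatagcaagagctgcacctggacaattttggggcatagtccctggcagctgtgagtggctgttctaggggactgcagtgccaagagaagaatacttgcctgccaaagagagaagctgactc
Igfals, first start with a match, chr17:24877594-24877893, plus strand: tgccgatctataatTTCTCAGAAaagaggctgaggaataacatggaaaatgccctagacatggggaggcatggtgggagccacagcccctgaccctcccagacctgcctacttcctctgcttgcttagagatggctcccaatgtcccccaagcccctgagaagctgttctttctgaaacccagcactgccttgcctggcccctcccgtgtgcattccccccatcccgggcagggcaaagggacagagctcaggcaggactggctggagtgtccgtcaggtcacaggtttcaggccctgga
Igfals, other start with a match, chr17:24877981-24878280, plus strand: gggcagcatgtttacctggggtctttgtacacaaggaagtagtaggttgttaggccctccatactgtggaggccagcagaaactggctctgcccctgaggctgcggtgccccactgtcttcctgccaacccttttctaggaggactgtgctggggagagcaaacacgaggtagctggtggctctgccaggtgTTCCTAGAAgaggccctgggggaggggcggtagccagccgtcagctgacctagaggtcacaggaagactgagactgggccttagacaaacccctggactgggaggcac
Igf1, chr10:87860861-87861160, plus strand, no match: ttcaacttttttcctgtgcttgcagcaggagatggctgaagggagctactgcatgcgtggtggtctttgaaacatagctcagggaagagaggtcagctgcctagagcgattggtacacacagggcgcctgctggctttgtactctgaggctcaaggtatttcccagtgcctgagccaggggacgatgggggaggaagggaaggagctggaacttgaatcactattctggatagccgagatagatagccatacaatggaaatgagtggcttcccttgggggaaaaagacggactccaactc
The Cish window held 2 matches, one beginning on the start base and one 11 bases after it. The Prlr match began 110 bases before the start at 10223906, and the Prlr entries starting at 10177238 and 10293651 held no match. The Igfals matches began 236 and 58 bases before their starts, and the Igfals entry starting at 24878747 held none. A match is only a run of letters, and a window without one says nothing about binding elsewhere at the gene.

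On a scale of normalized counts per kilobase of exon, which allows levels of different genes to be compared, the order of mean levels differed between the genotypes at its upper end. In KO livers the mean levels ran Ghr, Igf1, Stat5b, Prlr, Igfals, Cish, Jak2, Socs2 and Stat5a, with Ghr at 1105 ± 240 and Igf1 at 709 ± 380 (SD, n = 6). In WT livers they ran Igf1, Ghr, Igfals, Prlr, Stat5b, Cish, Jak2, Socs2 and Stat5a, with Igf1 at 1753 ± 761 and Ghr at 1373 ± 124 (SD, n = 6). Stat5b stood above Stat5a in both genotypes, at 316 ± 82.0 against 56.5 ± 11.3 per kilobase in KO livers and at 324 ± 44.2 against 57.0 ± 9.14 per kilobase in WT livers. The ranges over livers of all 8 neighbouring pairs in each order overlapped. Both genes of a pair were measured in the same livers, and their order within each liver was not tested. The overlap therefore does not show whether neighbouring positions were separated.

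The comparison of KO with WT livers asked whether loss of Lcorl changed the transcripts of this pathway. Igf1 and Igfals were lower on average in KO livers, while the mean levels of the kinase and of both STAT5 genes were close in the 2 genotypes. By limma, 0 of the 9 genes passed an adjusted p of 0.05, where 4.43% of all tested genes did, and 4 had an unadjusted p under 0.05, where 23.4% of tested genes did. Those 4 were Ghr, Prlr, Igf1 and Igfals, each with the lower mean in KO livers. Other tests of the same livers gave other counts. The edgeR quasi-likelihood test on recovered reads called 0 of the 9 (4.1% of all genes), DESeq2 on those reads called Igf1 and Igfals (9.27% of all genes), and the authors' deposited table called Igf1 alone (8.68% of genes with an adjusted p). In none of the 9 genes were the KO and WT ranges apart, as they were in 2.96% of tested genes. The median log2 fold change of the 9, KO over WT, was -0.34, against 0.0075 over all tested genes.

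**Figure D1:**
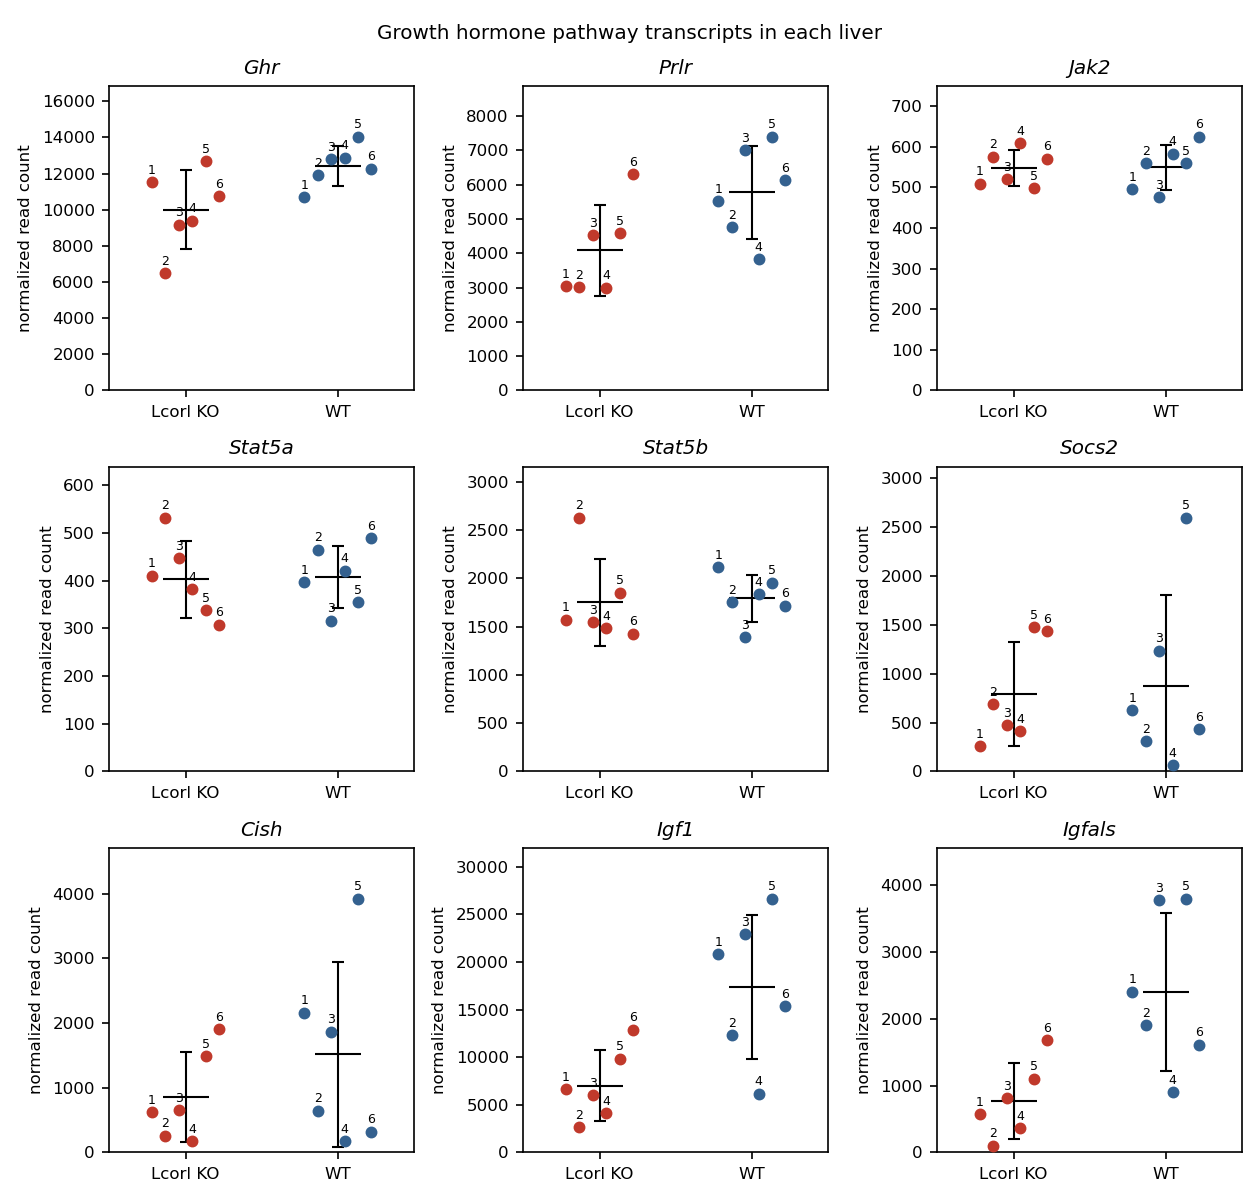
Normalized read count of each of the 9 transcripts (vertical axes, each starting at 0) in the 6 Lcorl KO livers (red, left) and the 6 WT livers (blue, right). Each point is 1 liver with its replicate number, and bars give the mean and SD, ended at 0 for Socs2 in WT livers. Igf1 lay between 2670 and 12892 in KO livers and between 6159 and 26646 in WT livers.

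Ghr, the growth hormone receptor (chromosome 15, 3317760 to 3583492, minus strand, GRCm38), had a lowest, median and highest normalized count of 6488, 10076 and 12688 in KO livers, against 10683, 12528 and 14039 in WT livers. KO 2 was the lowest of the 12 livers, and 3 of 6 KO livers lay below every WT liver. The means were 10008 ± 2169 in KO livers and 12427 ± 1121 in WT livers (SD, n = 6 each), a log2 fold change of -0.34 ± 0.14 (SE), which did not pass after adjustment (limma, adjusted p = 0.158). The spread between animals was wider among KO livers, with a coefficient of variation of 21.7% against 9.02% in WT livers. That difference in spread was not tested, and the KO value was 13.7% without KO 2, whose removal left the other 5 KO livers between 9181 and 12688. Without KO 2 the log2 fold change was -0.22 (limma, adjusted p = 0.200).

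Prlr, the prolactin receptor (chromosome 15, 10177238 to 10349180, plus strand), had a lowest, median and highest normalized count of 2999, 3790 and 6310 in KO livers, against 3833, 5825 and 7398 in WT livers. The groups overlapped, with 3 of 6 KO livers below the lowest WT liver and KO 6 above the WT median. The log2 fold change was -0.53 ± 0.21 (SE) with a 95% interval from -0.97 to -0.079, and it did not pass after adjustment (limma, adjusted p = 0.149).

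The signal carriers between receptor and nucleus lay close together in the 2 genotypes. Jak2, the receptor-bound kinase (chromosome 19, 29251828 to 29313080, plus strand), averaged 547 ± 44.0 normalized counts in KO livers and 549 ± 55.2 in WT livers (SD, n = 6 each), and the 95% interval of its log2 fold change ran from -0.18 to 0.17 (limma, adjusted p = 0.987). Stat5a (chromosome 11, 100859351 to 100885169, plus strand) averaged 403 ± 80.4 in KO livers and 407 ± 65.2 in WT livers, with an interval from -0.32 to 0.28 (limma, adjusted p = 0.952). Stat5b (chromosome 11, 100780731 to 100850724, minus strand) averaged 1750 ± 454 in KO livers and 1794 ± 245 in WT livers, with an interval from -0.37 to 0.25 (limma, adjusted p = 0.853). These intervals leave room for moderate differences in either direction. One KO liver, KO 2, had the highest Stat5a and the highest Stat5b count of the 12 livers, at 532 and 2627. Without KO 2 the log2 fold change of Stat5b was -0.18, against -0.058 with it (limma, adjusted p = 0.312 without KO 2). The 2 STAT5 genes are neighbours 8626 bases apart and share 608 windows of 50 identical bases, 8.21% of those in Stat5a and 11.0% of those in Stat5b, so some reads may fit both.

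Socs2, a feedback inhibitor of the growth hormone receptor (chromosome 10, 95385362 to 95417180, minus strand), varied more between animals of 1 genotype than between genotypes. Its lowest, median and highest normalized counts were 260, 579 and 1476 in KO livers, against 61.2, 528 and 2596 in WT livers. WT livers held both extremes, WT 4 the lowest and WT 5 the highest of all 12. The coefficient of variation was 67.5% in KO livers and 106% in WT livers, where the median over all tested genes was 14.7% in KO livers and 13.0% in WT livers. Its mean of log2 values was higher in KO livers by 0.36 and its linear mean was lower there (790 ± 533 in KO livers and 876 ± 931 in WT livers), and edgeR gave a log2 fold change of -0.15. No direction can be read from this gene, whose limma interval ran from -1.26 to 1.97 (adjusted p = 0.828).

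Cish, the other feedback inhibitor (chromosome 9, 107296026 to 107302784, plus strand), showed a similar spread. Its lowest, median and highest normalized counts were 177, 637 and 1909 in KO livers, against 171, 1256 and 3924 in WT livers. WT 4 and WT 5 were again the lowest and the highest of the 12 livers, and the groups overlapped over the whole KO range. The log2 fold change was -0.57 with an interval from -2.26 to 1.13 (limma, adjusted p = 0.722). Leaving out single livers moved it between -1.05 without WT 4 and -0.14 without WT 5. Exons of Cish overlap 2 genes annotated on the opposite strand, Gm17040 over 261 bases and Gm17041 over 479 bases, and exons of Stat5a overlap Stat3, also on the opposite strand, over 72 bases. Prlr shares 203 exonic bases with Gm21973 on its own strand. Whether reads were counted by strand is not stated, and without that the reads of partners on the opposite strand cannot be told apart. Counting by strand would not separate Prlr from Gm21973.

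Igf1, the growth factor that liver secretes in response to growth hormone (chromosome 10, 87858265 to 87937042, plus strand), counted 6611, 2670, 5998, 4147, 9840 and 12892 in KO 1 to KO 6, against 20802, 12283, 22926, 6159, 26646 and 15365 in WT 1 to WT 6. The 4 lowest livers were KO 2, KO 4, KO 3 and WT 4, and the 4 highest were all WT. The means were 7026 ± 3764 in KO livers and 17363 ± 7540 in WT livers (SD, n = 6 each), a 2.53-fold lower level in KO livers on the log2(count + 1) scale. The log2 fold change was -1.34 ± 0.40 (SE) with a 95% interval from -2.21 to -0.47, and it missed the threshold (limma, adjusted p = 0.0746; unadjusted p = 0.00537). DESeq2 on recovered reads gave -1.31 with an adjusted p of 0.0212, and the authors' deposited table gave a log2 fold change of -0.97 with an adjusted p of 0.0221. The deposited fold changes of Igf1 and Igfals are nearer 0 than those from DESeq2 run here, and whether they were shrunken is not stated, so their sizes are not comparable with the other estimates. The limma call also depended on single livers. It passed without KO 6 (-1.55, adjusted p = 0.0363) and without WT 4 (-1.61, adjusted p = 0.0409). Igf1 did not pass when any other single liver was left out, with the lowest adjusted p, 0.0704, without KO 5 (limma). Its value was -1.10 without KO 2 (limma, adjusted p = 0.116) and -1.23 without KO 4 (limma, adjusted p = 0.154).

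Igfals, the acid-labile subunit of the circulating IGF complex (chromosome 17, 24865997 to 24882010, plus strand), counted 572, 99.0, 810, 368, 1105 and 1684 in KO 1 to KO 6, against 2409, 1905, 3776, 902, 3799 and 1616 in WT 1 to WT 6. KO 2 stood lowest by a wide margin, 4 of 6 KO livers lay below every WT liver, and KO 6 exceeded WT 4 and WT 6. The means were 773 ± 566 in KO livers and 2401 ± 1179 in WT livers (SD, n = 6 each), 3.80-fold lower in KO livers on the log2(count + 1) scale. The log2 fold change was -1.93 ± 0.58 (SE), and it missed the threshold (limma, adjusted p = 0.0768; unadjusted p = 0.00565). DESeq2 gave -1.64 with an adjusted p of 0.0485, and the authors' deposited table gave -0.94 with an adjusted p of 0.0504. Without KO 6 the limma value was -2.24 with an adjusted p of 0.0357. Igfals did not pass when any other single liver was left out. It was -1.43 without KO 2 (limma, adjusted p = 0.0816) and -1.80 without KO 4 (limma, adjusted p = 0.154).

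**Figure D2:**
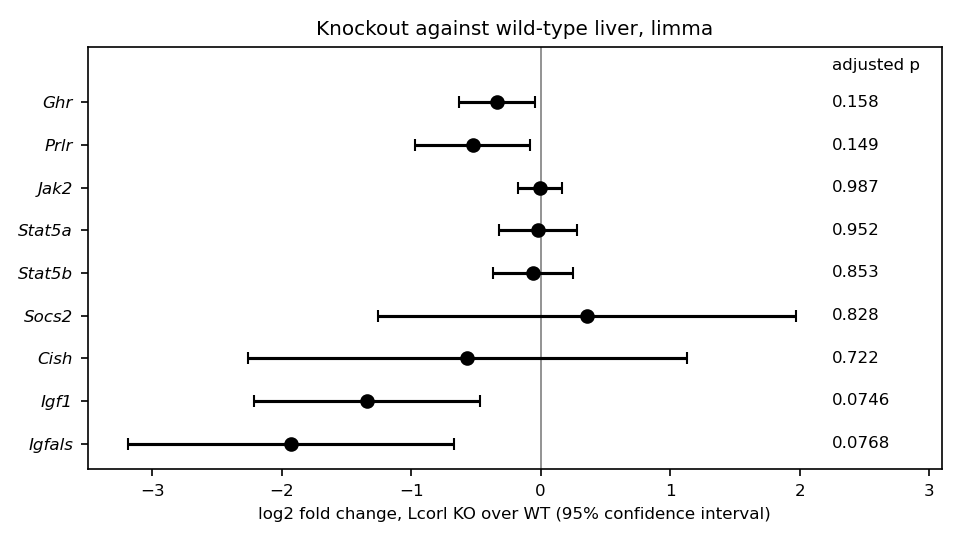
Log2 fold change of the 9 transcripts, Lcorl KO over WT (horizontal axis), from limma on log2(normalized count + 1). Points are estimates, bars are 95% confidence intervals, and the adjusted p over all 13569 tested genes stands at the right. The intervals of Jak2, Stat5a, Stat5b, Socs2 and Cish include 0. Those of Ghr, Prlr, Igf1 and Igfals lie below 0 although the adjusted p of each exceeds 0.05.

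The animal numbers in the labels fall into 4 runs of neighbouring numbers, and the labels do not say what a run stands for. In the run with KO 1 and WT 1, Igf1 counted 6611 in the KO liver and 20802 in the WT liver. In the run with KO 2, KO 3, KO 4 and WT 4, it lay between 2670 and 5998 in KO livers and at 6159 in the WT liver. In the run with KO 5, KO 6, WT 5 and WT 6, it lay between 9840 and 12892 in KO livers and between 15365 and 26646 in WT livers. So each KO liver had less Igf1 than each WT liver of its own run, while the levels of the runs themselves differed in both genotypes. The remaining run held WT 2 and WT 3 only. Igfals showed the same order within runs, except that KO 6 at 1684 exceeded WT 6 at 1616. With the run as a block, the log2 fold change of Igf1 was -0.94 (limma, adjusted p = 0.146) and that of Igfals was -1.36 (limma, adjusted p = 0.224).

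A fit with the log2 Socs2 count of each liver as a further term, added after the values were seen, compares genotypes at equal Socs2 level. In this fit Igf1 was lower in KO livers by a log2 value of -1.49 (limma, adjusted p = 0.0120), Igfals by -2.09 (limma, adjusted p = 0.0371) and Prlr by -0.60 (limma, adjusted p = 0.0286). These were 3 of the 8 other transcripts, where 4.94% of all tested genes passed. Within genotype, r with Socs2 was 0.77 for Igf1, 0.58 for Igfals, 0.80 for Prlr and 0.82 for Cish. A term that varies with these transcripts removes part of their spread. The count of 3 therefore cannot be read against that share. Cish did not pass, with a log2 fold change of -0.87 (limma, adjusted p = 0.287). Socs2 is itself in the pathway, so this value describes the 12 livers and does not separate an effect of genotype from one of Socs2.

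The second question was whether the transcripts varied together across the 12 livers. Each transcript was centred on the mean of its genotype, so that a shared difference between KO and WT livers could not by itself give a correlation. Of 36 pairs, 11 passed a permutation test adjusted over the 36, and each of the 11 had the same sign within KO livers and within WT livers. Among the 4 STAT5 target genes, Socs2, Cish, Igf1 and Igfals, 5 of 6 pairs passed, with r between 0.58 and 0.93 over the 6. Prlr passed with 4 of the 4 targets, with r between 0.79 and 0.87. Of 16 pairs between a target and one of Ghr, Jak2, Stat5a or Stat5b, 2 passed, both negative and both with Stat5a. Among the 6 pairs within those 4 signal carriers, and in the 4 pairs of Prlr with them, 0 passed by r or by rho. All pairs share the same libraries and scaling, so these correlations are not independent of each other.

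**Figure D3:**
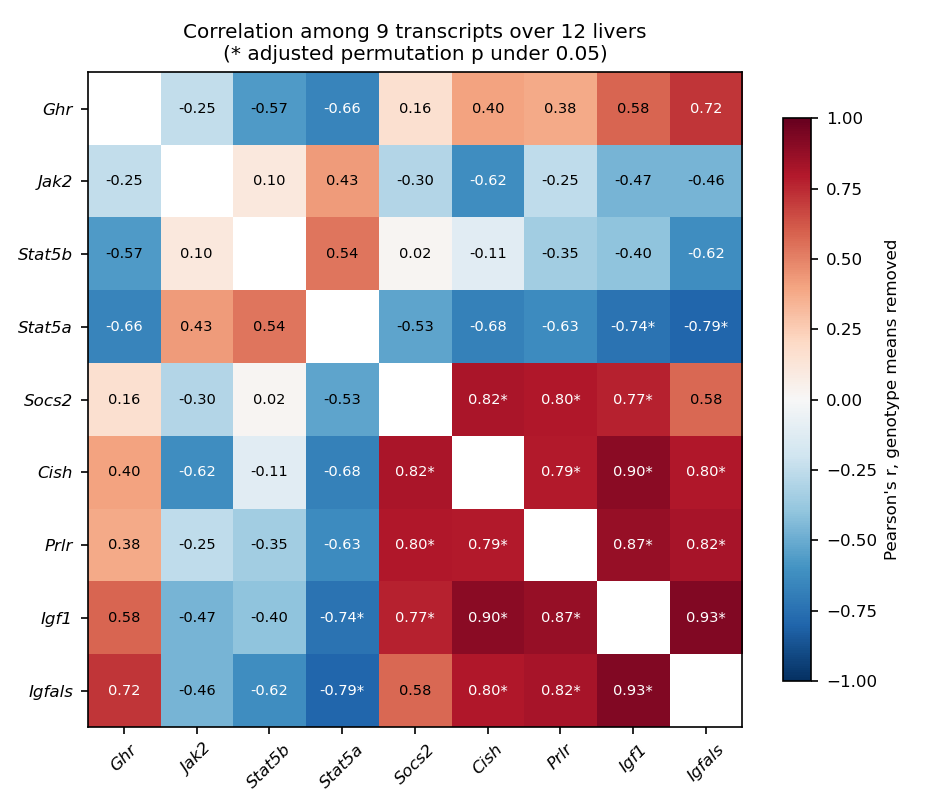
Pearson's r between each pair of the 9 transcripts over the 12 livers, on log2(normalized count + 1) with the genotype mean removed (colour scale from -1 to 1). An asterisk marks a permutation p under 0.05 adjusted over the 36 pairs. Prlr, Socs2, Cish, Igf1 and Igfals form a block of positive values, from 0.58 to 0.93, and Stat5a is negative against both Igf1 and Igfals.

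Igf1 and Igfals were the most closely related pair, with r = 0.93 (permutation, adjusted p = 0.00108) and Spearman's rho of 0.93 (permutation, adjusted p = 0.00156). Within genotype r was 0.96 in the 6 KO livers (exact p = 0.00278) and 0.95 in the 6 WT livers (exact p = 0.00417), where the smallest p the 720 pairings allow is 0.00139. Without KO 2 and WT 4, the livers farthest from the median of Igf1, r was 0.91. With the run of animal numbers removed as well as genotype, r was 0.89, given without a p.

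Igf1 also followed Cish, with r = 0.90 (permutation, adjusted p = 0.00216), at 0.93 in KO livers and 0.91 in WT livers. Its rho was 0.92 (permutation, adjusted p = 0.00156), and r was 0.86 without WT 4 and WT 5. Igf1 and Prlr gave r = 0.87 (permutation, adjusted p = 0.00351), at 0.83 in KO livers and 0.94 in WT livers, with a rho of 0.90 (permutation, adjusted p = 0.00274) and an r of 0.79 without KO 6 and WT 4. In these 2 pairs r with genotype and run removed was 0.82 and 0.91. Without genotype centring, r over the 12 livers was 0.78 for Cish and Igf1 and 0.92 for Prlr and Igf1.

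Igf1 and Socs2 gave r = 0.77 (permutation, adjusted p = 0.0158) and a rho of 0.77 (permutation, adjusted p = 0.0259). In the 6 WT livers r was 0.98 (exact p = 0.00139, the smallest the pairings allow), with the same rank order of livers for both genes. In the 6 KO livers r was 0.52 (exact p = 0.303). The difference between these values was not tested. Without WT 4 and WT 5, the livers farthest from the median of Socs2, the centred r over both genotypes was 0.60. Leaving out the extremes narrows the range of Socs2, so the drop cannot show that the relation leans on those livers. Igfals and Socs2 gave r = 0.58, which did not pass (permutation, adjusted p = 0.0616), and a rho of 0.69, which did (permutation, adjusted p = 0.0472). With the run of animal numbers removed as well as genotype, r was 0.62 for Socs2 with Igf1 and 0.22 for Socs2 with Igfals. Without centring, Socs2 and Igf1 gave r = 0.47 over the 12 livers (permutation, adjusted p = 0.214). At similar Socs2 levels the KO livers lay lower in Igf1. KO 6 held 12892 Igf1 counts at 1435 Socs2 counts, and WT 3 held 22926 at 1235.

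**Figure D4:**
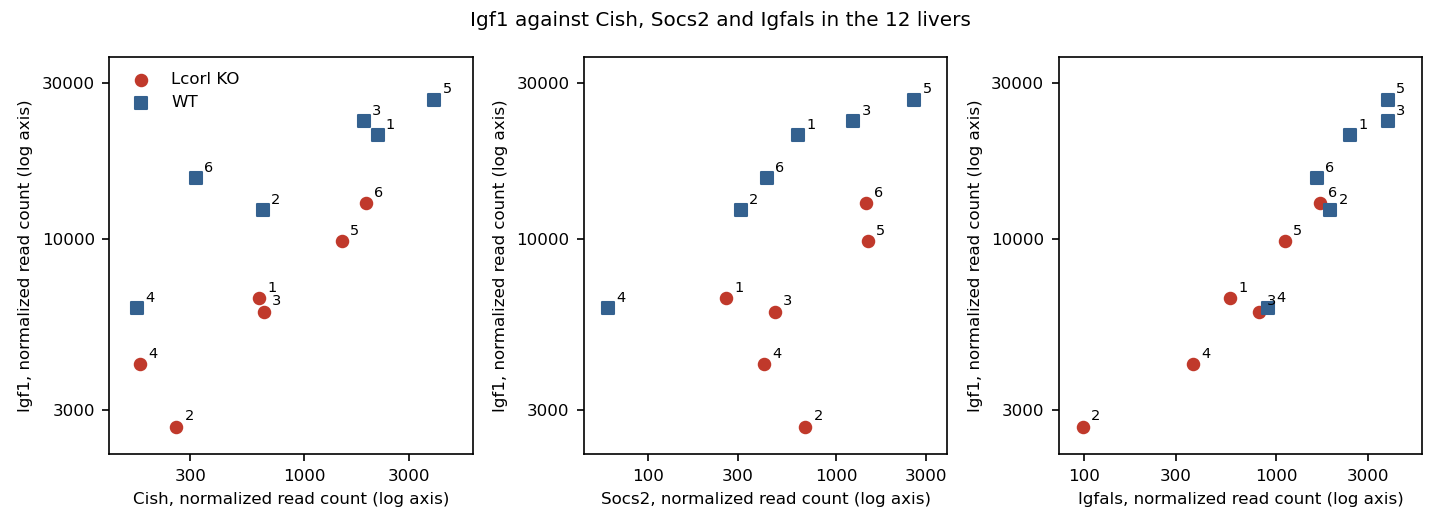
Igf1 (vertical log axis) against Cish, Socs2 and Igfals (horizontal log axes), as normalized read counts in the 6 Lcorl KO livers (red circles) and the 6 WT livers (blue squares), numbered by replicate. Within genotype r with Igf1 was 0.90 for Cish, 0.77 for Socs2 and 0.93 for Igfals. The WT livers lie above the KO livers in the Socs2 panel at similar Socs2 counts, and both genotypes fall near 1 line in the Igfals panel.

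The remaining positive pairs joined Socs2, Cish, Prlr and Igfals. Socs2 with Cish gave r = 0.82 (permutation, adjusted p = 0.0142), Socs2 with Prlr 0.80 (permutation, adjusted p = 0.0078), Cish with Igfals 0.80 (permutation, adjusted p = 0.00351), Prlr with Igfals 0.82 (permutation, adjusted p = 0.0128) and Cish with Prlr 0.79 (permutation, adjusted p = 0.0158). Without the 2 livers farthest from the median of the first gene, these 5 values of r were 0.66, 0.75, 0.78, 0.74 and 0.69. With the run removed too, they were 0.78, 0.60, 0.63, 0.74 and 0.78.

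Stat5a was the one signal carrier with a called relation to the output genes, and its sign was negative. It gave r = -0.79 with Igfals (permutation, adjusted p = 0.0158) and r = -0.74 with Igf1 (permutation, adjusted p = 0.0372). Within genotype r with Igfals was -0.85 in KO livers (exact p = 0.0306) and -0.71 in WT livers (exact p = 0.106). Without KO 2 and KO 6, the livers farthest from the median of Stat5a, the values were -0.58 with Igfals and -0.54 with Igf1. Leaving out the extremes narrows the range of Stat5a, so the drop cannot show that both lean on those livers. Over all 12 livers, with genotype and run removed, r was -0.71 with Igfals and -0.68 with Igf1. The relation with Igf1 no longer passed in 10 of 17 alternative settings and that with Igfals in 4 of 17.

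Ghr, the receptor gene, had no called pair with genotype centring. Its r with Igfals was 0.72 (permutation, adjusted p = 0.0932) and its r with Igf1 was 0.58 (permutation, adjusted p = 0.118). Ghr and Igfals gave r = 0.84 in the 6 KO livers (exact p = 0.0472) and 0.18 in the 6 WT livers (exact p = 0.758). Ghr and Igf1 gave r = 0.84 in the 6 KO livers (exact p = 0.0361) and 0.039 in the 6 WT livers (exact p = 0.928). By ranks in the KO livers, rho was 0.60 with Igfals (exact p = 0.242) and 0.77 with Igf1 (exact p = 0.103). These exact p-values are not adjusted over the pairs. The differences between genotypes in r were not tested. Without KO 2 and KO 5 the centred values were 0.27 with Igfals and 0.25 with Igf1. Over all 12 livers, with genotype and run removed, they were 0.53 with Igfals and 0.18 with Igf1. Without genotype centring both pairs passed, at r = 0.82 for Igfals (permutation, adjusted p = 0.0190) and 0.74 for Igf1 (permutation, adjusted p = 0.0201), but rho did not pass for either (permutation, adjusted p = 0.133 for each). Stat5b and Jak2 had no called pair, and their r with Igf1 was -0.40 (permutation, adjusted p = 0.310) for Stat5b and -0.47 (permutation, adjusted p = 0.215) for Jak2.

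Among 11088 genes with a mean of at least 50 normalized counts, the pattern of Igf1 across livers within genotype was closest to that of Clec2h (r = 0.97), a C-type lectin gene, Cyp2c69 (0.96) and Cyp2c40 (0.95), cytochrome P450 genes, Neb (0.96), which encodes nebulin, and Mbl2 (0.94), which encodes a mannose-binding lectin secreted by liver. The Cyp2c genes belong to a family of near copies, so their counts may share reads. Igfals ranked 14, Cish 18, Prlr 29 and Socs2 128 among the 11087 genes other than Igf1. The pattern of Socs2 was closest to that of Foxq1 (0.91), a forkhead transcription factor, Ergic2 (0.91), Snhg7 (0.91), Slc25a30 (0.90) and Atp6ap2 (0.90). Cish ranked 27, Prlr 41 and Igf1 57 for Socs2. These r values are over 12 livers and the genes were picked as the highest of many, so they are given with no p. By limma 0 of these 10 genes passed for genotype, with the lowest adjusted p, 0.0984, for Mbl2.

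Other genes of the pathway were read from lists by role, and the counts and medians that follow leave out the 9 transcripts. Over all tested genes, 4.43% passed by limma and 4.1% by edgeR, and 23.4% had an unadjusted p under 0.05 by limma. DESeq2 called 9.27% of the genes it gave an adjusted p. The counts of the lists were not tested against these shares. In the list of growth hormone signal transduction, 1 of 14 other tested genes rose, 0 fell and 13 did not pass, with a median log2 fold change of 0.048. The gene that rose was Grb10, an adaptor that restrains insulin and IGF-I receptor signalling. It counted 1083 ± 97.3 in KO livers and 804 ± 54.4 in WT livers (SD, n = 6 each), a log2 fold change of 0.43 ± 0.070 (SE; limma, adjusted p = 0.00569), with 6 of 6 KO livers above every WT liver. The adaptor Sh2b1, which enhances JAK2 activity, had a log2 fold change of 0.14 (limma, adjusted p = 0.112).

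Of the feedback inhibitors of JAK-STAT signalling, 0 of 12 other tested genes passed by limma, 0 by edgeR and 0 by DESeq2, and 3 had an unadjusted p under 0.05. The phosphatases Ptpn1 and Ptpn6 had the smallest p values, with log2 fold changes of 0.26 (limma, adjusted p = 0.149) and 0.20 (limma, adjusted p = 0.172). The median of the list was 0.15. Of 16 transcription factors and cofactors that act with STAT5 in liver, 0 passed by limma, 0 by edgeR and 1 by DESeq2, and 2 had an unadjusted p under 0.05. Onecut1, a liver transcription factor gene that responds to growth hormone, averaged 17.3 ± 11.6 in KO livers and 54.0 ± 42.4 in WT livers (SD, n = 6 each; limma, adjusted p = 0.160). Nr3c1, the glucocorticoid receptor, had a log2 fold change of -0.13 (limma, adjusted p = 0.176). The median of that list was -0.14.

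Among the class I cytokine receptors, the family of GHR and PRLR, 2 of 11 other tested genes rose and 0 fell, with a median of 0.098. Lepr, the leptin receptor, counted 1860 ± 1287 in KO livers and 622 ± 191 in WT livers (SD, n = 6 each), a log2 fold change of 1.46 ± 0.32 (SE; limma, adjusted p = 0.0253), with 6 of 6 KO livers above every WT liver. Its call ended with the run as a block (adjusted p = 0.0939), without KO 4 (0.0559) and without WT 5 (0.0520), all by limma. Csf2rb, a shared cytokine receptor chain, had a log2 fold change of 0.48 (limma, adjusted p = 0.0483), and the call ended in 14 of 25 alternative settings. Lifr, the leukaemia inhibitory factor receptor, which also responds to growth hormone, averaged 3903 ± 1213 in KO livers and 7096 ± 2280 in WT livers (SD, n = 6 each) and narrowly missed the threshold (limma, adjusted p = 0.0550).

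Of the IGF ligands and receptors other than Igf1, 0 of 4 tested genes passed by limma, 0 by edgeR and 1 by DESeq2, and 2 had an unadjusted p under 0.05. Igf2, the other IGF ligand, averaged 763 ± 332 in KO livers and 285 ± 141 in WT livers (SD, n = 6 each), a log2 fold change of 1.48 that did not pass (limma, adjusted p = 0.0555). The median of these 4 genes was 0.20. Of 10 tested IGF carriers and their proteases other than Igfals, 2 rose, 1 fell and 7 did not pass, with a median of 0.045. Igfbp2, a carrier of IGF-I and IGF-II, counted 28627 ± 3792 in KO livers and 8955 ± 2006 in WT livers (SD, n = 6 each), a log2 fold change of 1.70 ± 0.15 (SE; limma, adjusted p = 9.38e-05), with 6 of 6 KO livers above every WT liver. Stc1, an inhibitor of the binding protein protease PAPP-A, counted 58.8 ± 37.6 in KO livers and 14.8 ± 6.61 in WT livers (limma, adjusted p = 0.0325). Htra1, a secreted protease that can cleave IGF binding proteins, counted 50.6 ± 23.7 in KO livers and 102 ± 24.4 in WT livers (limma, adjusted p = 0.0428). The call of Stc1 ended in 8 of 24 alternative settings and that of Htra1 in 12 of 25. Igfbp1, an insulin-repressed carrier, averaged 21439 ± 17585 in KO livers and 5662 ± 4914 in WT livers and did not pass (limma, adjusted p = 0.138).

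Of 14 other tested liver genes known to respond to growth hormone, 1 rose, 3 fell and 10 did not pass by limma, with a median of -1.12. The list was not split by the direction in which growth hormone moves each gene. Its median therefore does not measure a gain or loss of that response. In the same list edgeR called 4 genes and DESeq2 called 7, where they called 4.1% and 9.27% of all genes. By limma 9 had an unadjusted p under 0.05, where 23.4% of tested genes did. Mup3, a major urinary protein gene, counted 267 ± 200 in KO livers and 3952 ± 1490 in WT livers (SD, n = 6 each), 18.7-fold lower in KO livers (limma, adjusted p = 0.00151), and 6 of 6 KO livers lay below every WT liver. Mup genes are near copies of each other, so reads may be shared. Serpina3k, a serine protease inhibitor gene, counted 46821 ± 25940 in KO livers and 170339 ± 87459 in WT livers, 3.68-fold lower (limma, adjusted p = 0.0340), and Ces2c, a carboxylesterase gene, counted 12.1 ± 10.9 in KO livers and 56.8 ± 20.4 in WT livers (limma, adjusted p = 0.0275). The call of Serpina3k ended in 8 of 25 alternative settings and that of Ces2c in 8 of 24. Cyp2d9, a cytochrome P450 gene, rose 2.02-fold, with 7885 ± 1673 in KO livers and 3868 ± 615 in WT livers (limma, adjusted p = 0.00317). Both Serpina3k and Cyp2d9 belong to families of near copies. Grb10, Igfbp2, Mup3 and Cyp2d9 kept their calls in all 25 alternative settings.

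**Figure D5:**
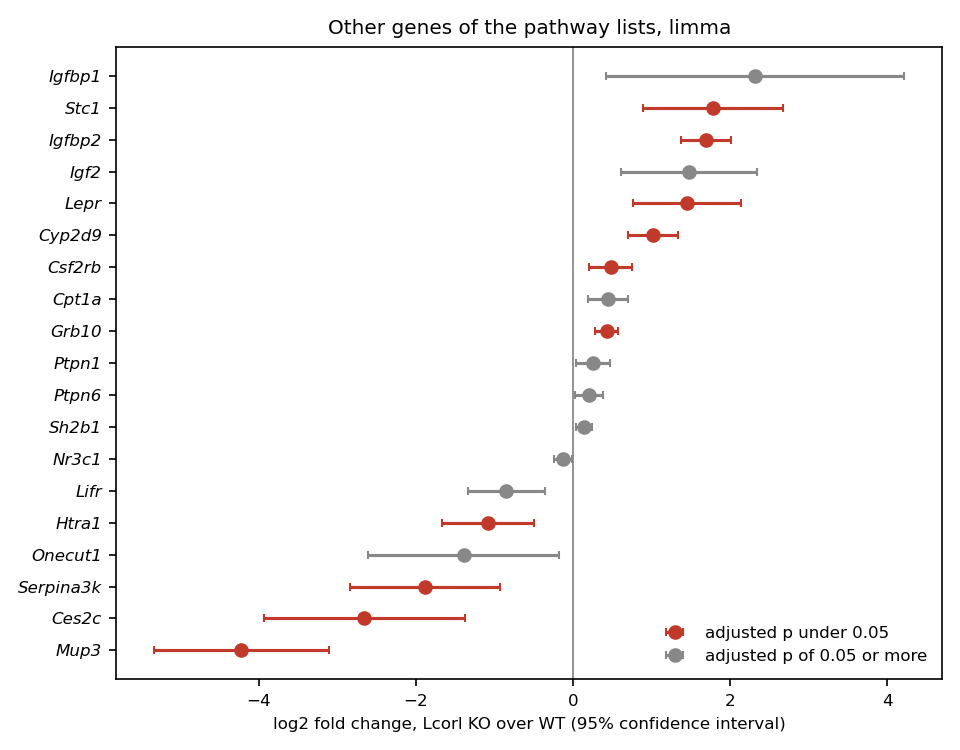
Log2 fold change, Lcorl KO over WT (horizontal axis), with its 95% confidence interval from limma, for the 19 genes named from the pathway lists other than the 9 transcripts. Red marks an adjusted p under 0.05 over all tested genes and grey an adjusted p of 0.05 or more. Igfbp2 and Mup3 lie farthest from 0 relative to their intervals, at 1.70 and -4.22.

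Genes that depend on fasting and insulin were listed because the same livers could differ in feeding state, which the labels do not give. Of 14 tested, 1 rose (Lepr, above), 0 fell and 13 did not pass, with a median of 0.18. The share passing over all tested genes was 4.43% by limma. Cpt1a, the carnitine transferase that admits fatty acids to mitochondria, averaged 12751 ± 1758 in KO livers and 9389 ± 1559 in WT livers (SD, n = 6 each; limma, adjusted p = 0.0503). The part of feeding state in the levels of Igf1 and Igfals was not tested.

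Markers of other cell types were read beside these results. Summed normalized counts of 7 stellate cell and fibroblast markers lay between 11457 and 22572 in KO livers and between 18440 and 25888 in WT livers. Those of 7 sinusoidal endothelial markers lay between 4573 and 10118 in KO livers and between 6845 and 11358 in WT livers. Those of 6 cholangiocyte markers lay between 567 and 1056 in KO livers, with KO 2 highest, and between 540 and 698 in WT livers. Kupffer cell markers lay between 18984 and 26214 in KO livers and between 15239 and 26535 in WT livers, and erythroid markers lay between 6567 and 22615 in KO livers and between 7562 and 39757 in WT livers. By limma 0 genes of these 5 lists passed. Adipocyte markers summed to between 6.80 and 28.0 in KO livers and between 5.10 and 242 in WT livers, with WT 6 highest, and the 1 marker of 6 that could be tested did not pass. The 4 of 8 exocrine pancreas markers in the table summed to between 131 and 280 in KO livers and between 273 and 503 in WT livers, and 1 of the 2 tested fell. The part of these cell types in the pathway values was not tested. With WT 6 and KO 2 left out together, the log2 fold change of Igf1 was -1.11 (limma, adjusted p = 0.120) and that of Igfals was -1.51 (limma, adjusted p = 0.0689).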

How the data were processed

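Livers of 6 Lcorl KO and 6 WT female mice were profiled by RNA-seq. Per the labels' protocols, RNA was column-purified with DNase, and the TruSeq Standard Total RNA LT kit gave the libraries. Per the submitters' processing notes, the tools were STAR, featureCounts, FastQC and DESeq2, on mm10. Their versions and the strand setting are not stated there. The deposited table holds normalized read counts per gene, a signal scaled per library. The authors' deposited comparison gives log2 fold changes and p-values with adjusted p-values, used only where named. Whole reads were recovered from the normalized counts in 12 columns, with every value whole within 0.001 reads, and gave the depths.

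The main test was limma 3.58.1 (trend, two-sided) in R 4.3.3 on log2(normalized count + 1), on 13569 genes whose mean reached 10, with Benjamini-Hochberg adjustment over those genes and genotype as the only term. The added 1 pulls fold changes of low genes toward 0, but they were not always below those of count models. For Ces2c limma gave -2.66 and edgeR -2.19, and for Stc1 limma gave 1.78 and edgeR 1.99. edgeR 4.0.16 (quasi-likelihood, TMM) and DESeq2 1.42.0 ran on the recovered reads as alternatives. Correlations used Pearson's r and Spearman's rho of the same log2 values, with 100000 permutations within genotype for centred values (over all livers for pooled values), adjusted over 36 pairs, and 720 exact pairings within each genotype, all two-sided. Replicate numbers follow accession order and pair no samples. Runs of animal numbers begin at a gap of at least 10. Scripts were tested on simulated data with known changes.

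The 9 genes, the lists and the named genes were chosen with earlier results of these data known. Named were the 9, per list up to 4 genes past the threshold with the smallest p or, where fewer passed, up to 2 further tested genes, and the 5 genes most like Igf1 and Socs2, leaving out predicted genes. Gene positions and exon lengths come from GENCODE M21 and promoters from RefSeq (GRCm38.p6). P-values for genotype set a difference between groups against the spread between these animals, and those for correlations come from permuting livers. The main tests treat each liver as independent, with no term for the run of animal numbers.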

Additional observations from a re-analysis of the deposited data

Results flagged for a closer look

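In each genotype of 6 livers, 28 genes (the 9 pathway transcripts and the other named list genes) were screened for a lowest or highest liver whose gap to its neighbour exceeded 0.625 of the range of its group. Of the 56 groups, 2 were flagged, where chance flags about 1 in 20. KO 2 stood apart in Stat5b, with 2627 normalized counts against 1851 in the next KO liver, and in Lepr, with 4478 against 1488. Both flags fall on the same liver, which also had the lowest Ghr, Igf1 and Igfals counts of the 12.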

How the results depend on the processing

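Without one liver at a time, the number of genes past the threshold over the whole table ranged from 224 to 933 around 601, the number of the 9 transcripts past it from 0 to 2, and the number of called pairs from 7 to 12 within genotype (7 without KO 6 and 7 without WT 4, against 11) and from 3 to 9 over the 12 livers without centring (4 without KO 2, 4 without KO 4 and 3 without WT 5, against 9). DESeq2 called 1350 genes and 2 of the 9 transcripts, and the replicate block of animal number runs left 158 genes and 0 of the 9. Leaving out WT 6 and KO 2 together gave 917 genes. The Socs2 level as a term, chosen after seeing the data, gave 3 of the 8 transcripts other than Socs2. Jak2, Stat5a, Socs2 and Cish, all with intervals that include 0, changed sign under some settings. Jak2 was at 0.0092 with equal upper quartiles, 0.023 with library quality weights, 0.019 without WT 6 and KO 2, 0.0053 with the Socs2 term, and between -0.044 and 0.034 without one liver at a time. Stat5a was at 0.012 with the Socs2 term and between -0.11 and 0.052 without one liver. Socs2 was at -0.15 by edgeR and -0.15 by DESeq2, and between -0.25 and 0.83 without one liver. Cish was at 0.15 with the replicate block. The cause of these shifts was not tested, beyond fewer livers where one was left out. The log2 fold change of Igf1 lay between -1.61 and -0.94 over 25 alternatives and that of Igfals between -2.24 and -1.36, and they passed in 4 and 3 of those. Prlr passed in 1 of 25. Within genotype, r of Igf1 and Igfals lay between 0.91 and 0.96 over 17 alternatives and passed in each. Socs2 in WT 4, at 48 reads, was the shallowest value used.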
